A study of Saccharomyces cerevisiae with 4 samples.

Results

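The genes described here encode 48 assembly factors of the large (60S) ribosomal subunit of budding yeast, Saccharomyces cerevisiae. They were chosen by name from the 6782 genes of the deposited table, from general knowledge of the pathway. The choice was made with earlier results of these data known. All 48 were found and passed the filter on low values. Cells of the W303 background held 1 copy of a construct called 6xIAPP at the LEU2 locus, under a promoter that estradiol turns on; IAPP is islet amyloid polypeptide, an amyloid-forming hormone of pancreatic beta cells. Per the labels, 2 cultures received DMSO (uninduced) and 2 received 100 nM estradiol (induced), each for 6 h in log phase, and the series' design text describes the replicates as biological. All 4 libraries came from cells carrying the construct, and estradiol without the construct was not analysed here, so the inducer and the construct cannot be told apart. The mRNA of the construct itself was not analysed here.

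A ribosome's large subunit is built around a precursor rRNA in the nucleolus, where RNA helicases, RNA-binding proteins and scaffold complexes fold and cut the RNA as ribosomal proteins join. GTPases then check the particle in the nucleoplasm, export factors carry it through the nuclear pore, and a last group of proteins is stripped off in the cytoplasm. The genes of these factors belong to the ribosome biogenesis regulon, which in yeast is known to be transcribed together in growing cells and to be turned down when growth signals fall.

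Levels are the authors' normalized CPM, counts scaled by a library size other than the column total (the columns sum to 945865 to 1041888). They are relative to the other mRNAs of a library, so less mRNA of a gene per cell and more of other mRNAs cannot be told apart. Whole reads recovered from these values came to 10397606 to 15582338 per library. A log2 fold change compares induced with uninduced cells as the difference of log2(CPM + 1), given as value ± SE from limma with 2 libraries per group, which shrinks the change of genes with low values. A gene was called at a Benjamini-Hochberg adjusted p under 0.05 over the 6037 genes tested. Nothing in the labels ties a library to a batch.

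The assembly factor mRNAs were lower in induced cells almost without exception. By limma, 47 of 48 fell and 0 rose, where 37.0% of all genes tested fell and 35.6% rose (72.7% in either direction). No member was higher even at an unadjusted p under 0.05 (count 0), and edgeR and DESeq2 on the recovered reads also called 0 members higher. The fall was 2-fold or more in 31 of the 48, against 7.22% of all genes tested. Counts of 2-fold falls are on the log2(CPM + 1) scale unless CPM is named. The median log2 fold change was -1.18, beside 0.00 for all genes tested, and the members ran from -2.24 to -0.21. In the median member the induced level was 43.5% of the uninduced one. In 47 members both induced libraries lay below both uninduced libraries, a pattern seen in 43.1% of all genes tested. The authors' deposited table called 44 of the 48 lower at its own adjusted p under 0.05, against 21.6% of the genes tested; the 4 it did not call were DBP6, DBP7, REI1 and LOC1. With libraries scaled to their column totals, the median of all genes moved to 0.12 and that of the members to -1.05. In that scaling 26 members were at least 2-fold lower. The share of higher genes among all calls was then 60%, and 49.1% under the scaling of the authors.

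The summed level of the 48 mRNAs was 4419 and 4842 CPM in the uninduced libraries and 2107 and 2040 CPM in the induced libraries. The induced libraries were close to each other, and the second uninduced library stood above the first. It held the higher value in 40 of 48 members (83.3%), with a median ratio of 1.08, whereas over all genes tested it was higher in 49.7%. The second uninduced library was also higher in 33 of 36 further 60S factors (91.7%) and 37 of 45 small subunit processome factors (82.2%). Both lists are described below, and the offset was thus not limited to the members. Without that library 47 members were still called lower, 29 of them by at least 2-fold, and the median was -1.12; without the first uninduced library 48 were called and the median was -1.24.

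**Figure D1:**
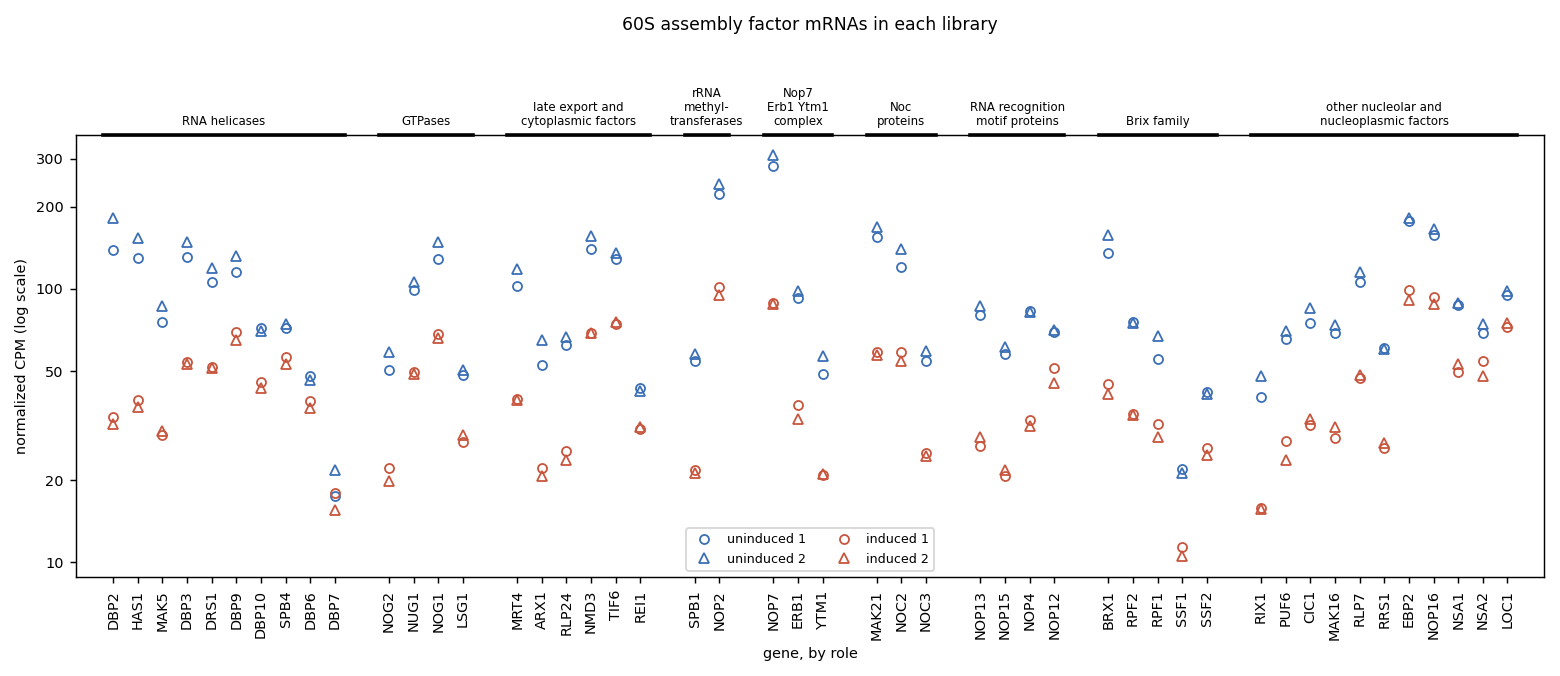
Normalized CPM (log axis) of each of the 48 assembly factor genes in the 4 libraries, grouped by role; blue symbols are uninduced and red symbols induced cultures, circles replicate 1 and triangles replicate 2. In 47 genes both red symbols lie below both blue symbols, and in DBP7 they overlap.

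The RNA helicases, which use ATP to open or remodel RNA duplexes in the precursor particle, spread more widely than any other role group, from the largest fall among the 48 genes to the smallest. Of 10 helicase genes, 9 fell, 5 of them by at least 2-fold, and the median was -0.99. DBP2, a DEAD-box helicase that also acts on mRNA, was at 139 and 181 CPM in the uninduced libraries and at 33.9 and 32 CPM in the induced ones. Its uninduced libraries differed by more than those of any other member, yet both stood far above the induced pair. The fall of -2.24 ± 0.10 (limma adjusted p = 7.87e-10) ranked 26 from the lowest among the 6037 genes tested. The DBP2 coding sequence (chromosome XIV, 413639 to 416281) is split by 1 intron into 2 exons, and gene totals do not separate spliced from unspliced RNA. HAS1, a helicase needed for both subunits, went from 130 and 153 CPM to 39.2 and 37.0 CPM (-1.86 ± 0.08, adjusted p = 5.52e-10), again with no overlap.

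MAK5, a helicase of the early nucleolar particle, fell from 76.0 and 86.9 CPM to 29.2 and 30.3 CPM (-1.42 ± 0.08). DBP3, which assists cleavage in the first internal spacer of the precursor rRNA, went from 130 and 148 CPM to 53.8 and 53.1 CPM (-1.36 ± 0.07). In both genes the groups lay far apart and the induced libraries were nearly equal. DRS1 (-1.11 ± 0.07), DBP9 (-0.87 ± 0.07) and DBP10 (-0.66 ± 0.07) formed a graded middle, and SPB4, also nucleolar, moved less, from 71.9 and 74.8 CPM to 56.3 and 53.1 CPM (-0.42 ± 0.07, adjusted p = 0.000105).

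DBP6 and DBP7 act on the earliest large-subunit particles. DBP6 was at 47.9 and 46.5 CPM uninduced and 39.0 and 36.6 CPM induced (-0.31 ± 0.08, adjusted p = 0.00261). Its groups did not overlap, but it did not pass when tested against a 1.2-fold change (adjusted p = 0.459; its alternatives spanned 0.00134 to 0.459). DBP7 had the lowest level per length of all members, 8.79 CPM per kilobase of coding sequence in uninduced cells. Its values were 17.5 and 21.7 CPM uninduced and 17.9 and 15.5 CPM induced, so that the groups overlapped, and it was not called (-0.21 ± 0.12, adjusted p = 0.139). It passed in 1 of 17 alternatives, the fit without the first uninduced library (-0.36, adjusted p = 0.0150); all its alternatives spanned adjusted p from 0.0150 to 0.969.

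The start regions of these extremes are shown because yeast ribosome biogenesis genes are known for a pair of short promoter elements. The PAC element, with the core GATGAG, is bound in yeast by the repressors Dot6 and Tod6, and the RRPE element by the repressor Stb3. The sequences are the 250 bases before the start codon, 5′ to 3′ on the strand of the gene, read from the RefSeq R64 genome, the build named in the submitters' processing notes. They belong to the 2 members with the largest fall, DBP2 (chrXIV:413389-413638, plus strand) and HAS1 (chrXIII:851592-851841, minus strand), and to the 2 with the smallest change, DBP6 (chrXIV:695345-695594, plus strand) and DBP7 (chrXI:487373-487622, minus strand). Capitals mark the PAC core GATGAG and the RRPE letters AAAATTTT or AAAAATTT on either strand, and both RRPE forms can overlap in 1 site.
DBP2: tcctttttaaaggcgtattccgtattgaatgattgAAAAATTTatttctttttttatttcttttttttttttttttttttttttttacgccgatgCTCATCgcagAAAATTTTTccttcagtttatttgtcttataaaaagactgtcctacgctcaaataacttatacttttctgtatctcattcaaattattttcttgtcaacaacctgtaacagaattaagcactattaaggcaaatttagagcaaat
HAS1: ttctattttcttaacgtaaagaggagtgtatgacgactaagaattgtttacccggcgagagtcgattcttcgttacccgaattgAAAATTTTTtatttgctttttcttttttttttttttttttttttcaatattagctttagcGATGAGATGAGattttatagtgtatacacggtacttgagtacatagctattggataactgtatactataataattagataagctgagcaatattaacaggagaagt
DBP6: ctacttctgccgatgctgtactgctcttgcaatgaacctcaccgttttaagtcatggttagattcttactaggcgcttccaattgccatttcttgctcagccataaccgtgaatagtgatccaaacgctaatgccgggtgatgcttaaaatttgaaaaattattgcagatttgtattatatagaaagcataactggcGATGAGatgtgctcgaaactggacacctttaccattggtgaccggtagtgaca
DBP7: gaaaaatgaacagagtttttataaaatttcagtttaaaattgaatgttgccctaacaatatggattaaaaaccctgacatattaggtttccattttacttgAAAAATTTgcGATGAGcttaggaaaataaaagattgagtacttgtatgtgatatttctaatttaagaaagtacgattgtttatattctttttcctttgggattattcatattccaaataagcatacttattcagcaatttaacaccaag

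DBP2 holds a PAC core on the reverse strand, 155 bases before the start codon, with overlapping RRPE matches 145 and 144 bases before it and another at 215. In HAS1 a pair of overlapping PAC cores begins 106 and 101 bases before the start, with the RRPE match farther out at 166. DBP7, the member that was not called, has a PAC core at 139 and an RRPE match at 149. That match is of the form AAAAATTT only, whereas DBP2 and HAS1 also hold AAAATTTT. DBP6 has a PAC core at 53, nearer to the start codon than in any other member, and no RRPE match. Distances run from the first base of the match to the start codon.

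All 48 members held at least 1 of these elements in the 250 bases. A PAC core was found in 45 members (93.8%), against 17.0% of 5962 windows of the same length before all protein-coding genes in the table. The longer form GCGATGAG was in 30 members (62.5%), against 3.86% of all windows. An RRPE match of either form was in 46 members (95.8%), against 15.2%, with the form AAAATTTT in 39 members and 8.64% of all windows and the form AAAAATTT in 43 members and 13.5%; most members held both forms. The shared elements are a known feature of the gene class for which the members were chosen, so these shares describe the class.

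In 43 members that held both, the RRPE match nearest to the start codon lay farther out than the nearest PAC core in 39 (90.7%), by a median of 24 bases in those 39. In the 337 windows with both among all genes this was so in 216 (64.1%), also by a median of 24 bases. The elements were also common in 2 lists of related genes, 45 factors of the small subunit processome and 36 further 60S factors, with no test of the differences. A PAC core was in 88.9% of the processome genes and 77.8% of the further factors, an RRPE match in 93.3% and 80.6%, and the RRPE match lay farther out in 33 of 39 processome genes with both (84.6%) and 19 of 23 further factors (82.6%). By these nearest matches, the 4 members with the opposite order were DBP2, NOP7, NOG2 and REI1. DBP2 and NOP7 also held an RRPE match farther out than their PAC cores. The nearest PAC core began a median of 115 bases before the start codon. The 3 members without a PAC core were SPB1, NSA1 and RIX1, and the 2 without an RRPE match were DBP6 and MAK5. The median log2 fold change was -1.17 in the 45 members with a PAC core and -1.35 in the 3 without. Only the exact letters were searched, so near matches in those 3 were not counted. Members holding the AAAATTTT form had a median of -1.19 (39 genes) and those without it -0.83 (9 genes, from -1.56 to -0.21). All of those 9 but DBP6 and MAK5 held AAAAATTT, so this does not set members with an RRPE match against members without. The 2 without either form lay at -1.42 and -0.31. For AAAAATTT the medians were -1.19 with (43 genes) and -0.66 without (5 genes), and for GCGATGAG -1.153 (30 genes) and -1.175 (18 genes). These medians are descriptions without a test, and a match is not evidence of binding.

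**Figure D2:**
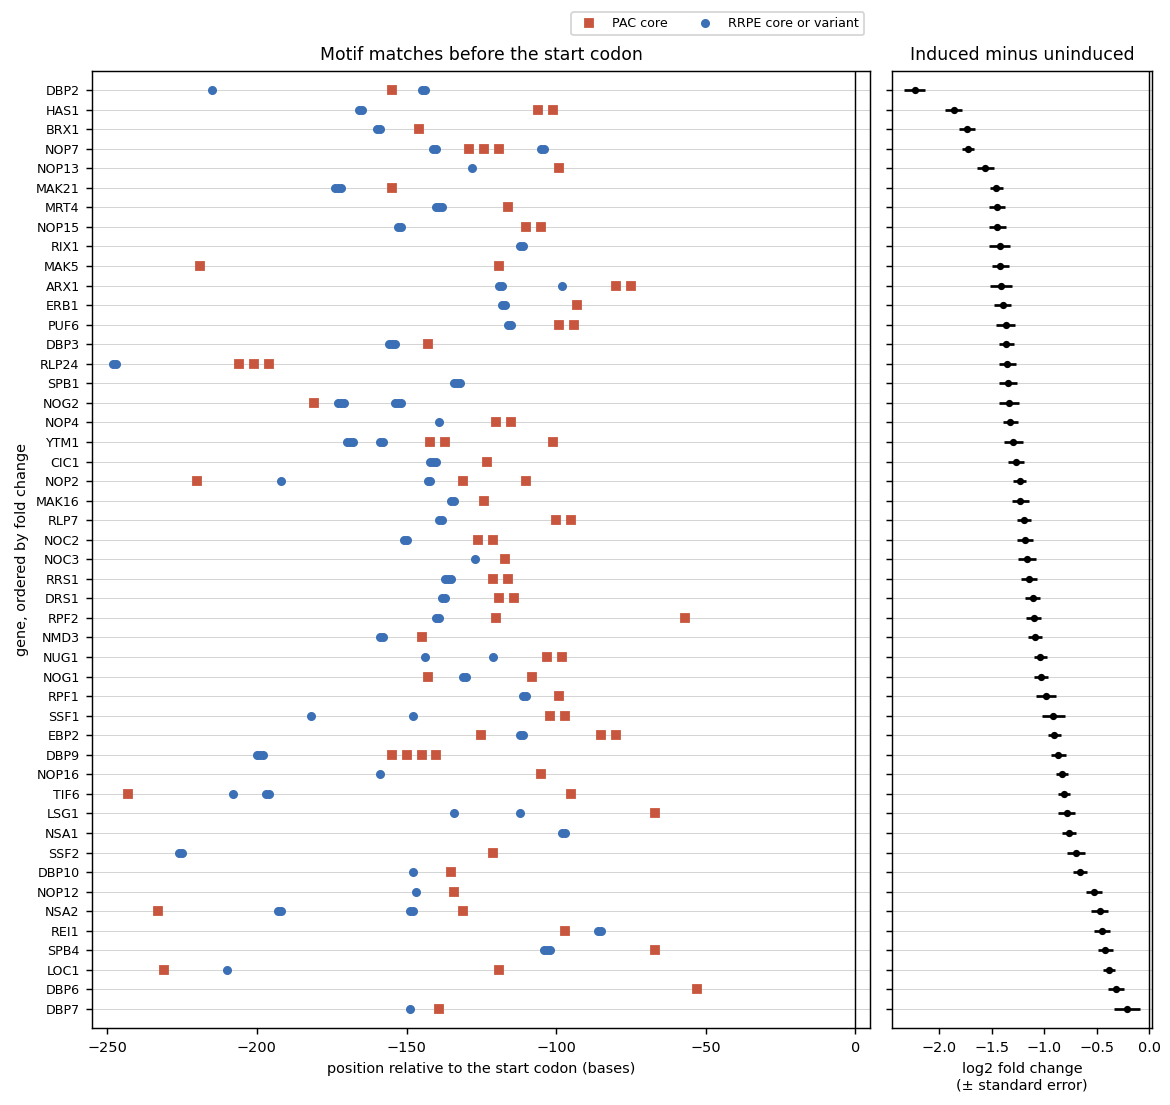
Left, positions of PAC core matches (squares) and RRPE matches (circles) in the 250 bases before the start codon of each of the 48 genes, ordered by fold change with the largest fall at the top; right, the log2 fold change of each gene with its SE. In 39 of the 43 genes that hold both elements the nearest RRPE match lies farther from the start codon than the nearest PAC core; the 4 exceptions include the gene with the largest fall, DBP2.

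All 4 GTPase genes fell, 3 of them by at least 2-fold, with a median of -1.04. These enzymes act as checkpoints that couple GTP hydrolysis to a step of maturation. NOG2, which holds the place that the export adapter Nmd3 later takes, was at 50.6 and 58.9 CPM uninduced and 22.2 and 19.8 CPM induced (-1.34 ± 0.10, adjusted p = 5.61e-08). The intron of NOG2 (chromosome XIV, 721120 to 723112) contains the small nucleolar RNA gene SNR191 on the same strand; that gene has a row of its own at 0.0812 to 0.701 CPM. NUG1, needed for export, went from 99.1 and 106 CPM to 49.7 and 48.9 CPM (-1.04 ± 0.06), and NOG1, which joins in the nucleolus and leaves in the cytoplasm, from 129 and 148 CPM to 68.3 and 66.1 CPM (-1.03 ± 0.07). In both genes the groups were apart, but the weakest fall over all settings was -0.91 in each, short of 2-fold. LSG1, the cytoplasmic GTPase that helps to release Nmd3, fell least of the 4, from 48.6 and 50.7 CPM to 27.4 and 29.3 CPM (-0.79 ± 0.08, adjusted p = 1.58e-06).

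The 6 late export and cytoplasmic factors all fell, 4 by at least 2-fold, with a median of -1.22. MRT4, which occupies the site of the ribosomal stalk until it is replaced by a ribosomal protein, went from 102 and 118 CPM to 39.7 and 39.3 CPM (-1.45 ± 0.08). ARX1, an export factor bound near the exit of the peptide tunnel, went from 52.8 and 64.8 CPM to 22.1 and 20.6 CPM (-1.41 ± 0.10), and RLP24, a placeholder related to a ribosomal protein, from 62.4 and 66.6 CPM to 25.6 and 23.8 CPM (-1.35 ± 0.08). In none of these 3 genes did a library of one group reach the other group.

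NMD3, the adapter for the export receptor Crm1, went from 140 and 156 CPM to 68.8 and 69.1 CPM (-1.09 ± 0.06, adjusted p = 8.02e-09). TIF6, which keeps the immature large subunit from joining the small one, went from 129 and 136 CPM to 74.3 and 75.5 CPM (-0.81 ± 0.06). REI1 acts in the cytoplasm to release Arx1, and it moved least of this group, from 43.3 and 42.2 CPM to 30.7 and 31.3 CPM (-0.45 ± 0.08, adjusted p = 0.000206). ARX1 and REI1, whose proteins meet on the same particle, stood at 36.3% and 72.6% of their uninduced levels; the difference between the 2 genes was not tested. REI1 is also overlapped on the other strand by SLM6, whose row held 0.200 to 0.406 CPM. The strand setting of the counting is not given, so reads in the overlap may have been dropped from both genes. REI1 passed in all 17 alternatives, with adjusted p from 5.8e-05 to 0.0398, but had adjusted p = 0.069 in the authors' deposited table.

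**Figure D3:**
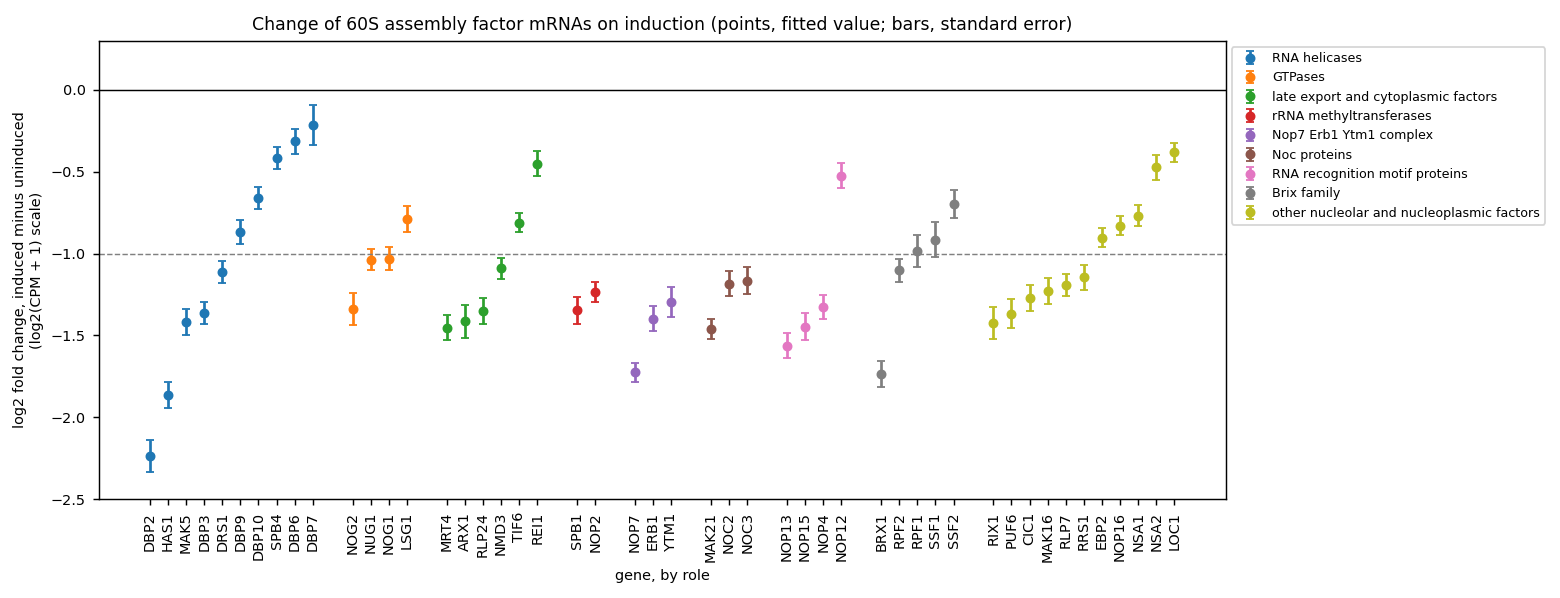
Log2 fold change (induced minus uninduced, log2(CPM + 1) scale) of the 48 genes by role group; points are limma estimates and bars their SE, and the dashed line marks a 2-fold fall. The helicases run from -2.24 to -0.21, whereas all 3 genes of the Nop7 Erb1 Ytm1 complex and all 3 Noc genes lie below the dashed line.

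Both rRNA methyltransferase genes fell by more than 2-fold. NOP2, which methylates a cytosine of the large-subunit rRNA, was among the members with the highest CPM, which is not corrected for length. It was at 223 and 243 CPM uninduced and 101 and 95.1 CPM induced (-1.24 ± 0.06, adjusted p = 1.5e-09). SPB1, which methylates ribose, went from 54.6 and 57.8 CPM to 21.8 and 21.2 CPM (-1.35 ± 0.08).

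The trimeric complex of Nop7, Erb1 and Ytm1 is needed to process the precursor of the large rRNAs, and its 3 genes fell by 2.53-fold to 3.34-fold on the CPM scale. NOP7 had the highest CPM of all members, 281 and 310 uninduced, and 89.1 and 88.1 induced (-1.73 ± 0.06, adjusted p = 7.27e-11). ERB1 went from 92.5 and 98.0 CPM to 37.8 and 33.3 CPM (-1.40 ± 0.08), and YTM1 from 49.0 and 56.7 CPM to 20.8 and 21.0 CPM (-1.30 ± 0.09). Per length of coding sequence, NOP7 mRNA was 4.06 and 4.22 times as abundant as ERB1 mRNA in uninduced cells and 3.15 and 3.52 times in induced cells. The ratio was lower in both induced libraries, as was that of NOP7 to YTM1, which went from 4.37 and 4.16 to 3.26 and 3.19. With 2 libraries against 2, an exact permutation test cannot give a p under 0.333, and these ratios were not tested.

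Noc1, encoded by MAK21, pairs with Noc2 in early particles, and Noc2 pairs with Noc3 later. MAK21 went from 155 and 168 CPM to 58.8 and 57.3 CPM (-1.46 ± 0.06). NOC2 (-1.18 ± 0.08) and NOC3 (-1.17 ± 0.08) fell by almost the same amount, to 43.5% and 43.6% of their uninduced levels.

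Among the 4 genes of proteins with RNA recognition motifs, 3 fell by more than 2-fold and 1 by less. NOP13 went from 80.1 and 87.0 CPM to 26.6 and 28.6 CPM (-1.56 ± 0.08, adjusted p = 1.88e-09). NOP15, whose protein binds the second internal spacer, went from 58.1 and 61.2 CPM to 20.6 and 21.8 CPM (-1.45 ± 0.08), and NOP4 from 82.9 and 82.5 CPM to 33.3 and 31.5 CPM (-1.33 ± 0.07). NOP12 stood apart from them at 69.5 and 70.6 CPM uninduced and 51.6 and 45.4 CPM induced (-0.53 ± 0.08, adjusted p = 3.91e-05).

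The 5 genes of the Brix family, RNA-binding proteins that share a fold, all fell, 2 of them by at least 2-fold. BRX1 ranked next after DBP2 and HAS1 by the size of its fall, from 136 and 157 CPM to 45.1 and 41.3 CPM (-1.73 ± 0.08). Its binding partner EBP2 was at 177 and 182 CPM uninduced and 99.5 and 91.5 CPM induced (-0.90 ± 0.06), so the partners kept 29.5% and 53.2% of their uninduced levels. RPF2 and RRS1, which together bring the particle of the smallest rRNA into the large subunit, kept 45.9% and 44.3% (-1.10 ± 0.07 and -1.15 ± 0.08). RPF1 went from 55.3 and 67.3 CPM to 32 and 28.8 CPM (-0.98 ± 0.10). That is 2.02-fold on the CPM scale, but the change of -0.98 on the log2(CPM + 1) scale is short of 2-fold. RPF1 is therefore not among the 2.

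SSF1 and SSF2 are paralogs with overlapping function. Their coding sequences, both 1362 bases long, are identical at 92.1% of positions, with a longest identical run of 92 bases, so reads within such runs may have been split or dropped and the 2 values are uncertain. SSF1 was at 21.9 and 21.1 CPM uninduced and 11.4 and 10.5 CPM induced (-0.91 ± 0.11, adjusted p = 6.46e-06). SSF2 was at 42.1 and 41.4 CPM uninduced and 26.1 and 24.6 CPM induced (-0.70 ± 0.08, adjusted p = 7.01e-06). SSF2 was the more abundant copy in every library, and the ratio of SSF1 to SSF2 was 0.520 and 0.511 uninduced and 0.435 and 0.428 induced.

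The other nucleolar and nucleoplasmic factors, 11 genes, all fell, 6 of them by at least 2-fold, with a median of -1.15. RIX1, a subunit of the complex that recruits the giant ATPase Mdn1, fell most, from 40.3 and 47.9 CPM to 15.8 and 15.7 CPM (-1.42 ± 0.10). PUF6, which also represses translation of the localized ASH1 mRNA, followed at -1.37 ± 0.09, and CIC1 and RLP7, which sit at the second internal spacer, at -1.27 ± 0.08 and -1.19 ± 0.07. MAK16 (-1.23 ± 0.08) and RRS1 complete the group past 2-fold. NOP16 had the highest level per length of all members in uninduced cells, 233 CPM per kilobase of coding sequence, and went from 158 and 166 CPM to 93.5 and 88.3 CPM (-0.83 ± 0.06).

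NSA1 went from 87.6 and 89.0 CPM to 49.7 and 53.2 CPM (-0.77 ± 0.07). NSA2 was at 68.9 and 74.3 CPM uninduced and 54.6 and 48 CPM induced (-0.47 ± 0.08, adjusted p = 0.000129). LOC1, a second factor linked to ASH1 mRNA, was at 95.4 and 98.0 CPM uninduced and 72.6 and 75.3 CPM induced. Its groups were apart, with a fall of -0.38 ± 0.06 (adjusted p = 8.1e-05), but it did not pass against a 1.2-fold change (adjusted p = 0.0747; its alternatives spanned 1.05e-05 to 0.0747). LOC1 and PUF6, linked to the same mRNA outside the ribosome, stood at 76.5% and 37.9% of their uninduced levels.

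Further factors of the same pathway, a list of 36 genes drawn from general knowledge with earlier results known, moved mostly the same way. Of these, 30 fell, 1 rose and 5 were not called, with a median of -0.97. NIP7, an assembly factor of the nucleolus, fell most, from 24.5 and 26.6 CPM to 6.33 and 7.90 CPM (-1.71 ± 0.13). RRB1, the chaperone of a ribosomal protein, fell from 167 and 190 CPM to 62.5 and 63.7 CPM (-1.48 ± 0.07), and MTR4, a helicase of the nuclear exosome, from 63.7 and 78.3 CPM to 25.2 and 24.2 CPM (-1.48 ± 0.10). GRC3, the kinase that works with the endonuclease Las1 at the second internal spacer, was the gene that rose, from 23.3 and 25.3 CPM to 49.0 and 49.4 CPM (0.99 ± 0.08, adjusted p = 2.34e-07). The genes not called were the exonuclease gene RAT1 (-0.01, adjusted p = 0.936), the Tif6 release factor gene SDO1 (0.02, adjusted p = 0.822), URB2 (0.04, adjusted p = 0.696), the cytoplasmic J protein gene JJJ1 (-0.11, adjusted p = 0.149) and IPI1, whose protein is a partner of Rix1 (-0.24, adjusted p = 0.130, but -0.50 with adjusted p = 0.00679 after quantile normalization).

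Factors of the small subunit processome, the early particle of the other subunit, were counted for comparison. Of 45 genes, 41 fell, 1 rose and 3 were not called, with a median of -0.92, and 19 of the 45 fell by at least 2-fold. The methyltransferase gene NOP1 fell most, from 417 and 453 CPM to 129 and 128 CPM (-1.75 ± 0.05), then UTP4 (-1.59 ± 0.08) and the box C/D protein gene NOP58, from 193 and 222 CPM to 70 and 74.4 CPM. FAL1 rose from 9.23 and 10 CPM to 12 and 13 CPM (0.35 ± 0.12, adjusted p = 0.0226). That call was lost in 6 of 17 alternatives, among them quantile normalization (0.14, adjusted p = 0.284), DESeq2 (adjusted p = 0.130) and the fits without induced library 1 (adjusted p = 0.0542), induced library 2 (adjusted p = 0.141) or uninduced library 1 (adjusted p = 0.0862). The adjusted p ran from 0.00442 to 0.453 over the 17 alternatives. LCP5 (0.13, adjusted p = 0.227, but 0.0310 with column totals), UTP25 (-0.08, adjusted p = 0.378) and RCL1 (-0.12, adjusted p = 0.258) were not called. The 48 members had the lowest median of the 3 lists, but no test of that difference was made. All 3 lists were chosen with earlier results of these data known.

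**Figure D4:**
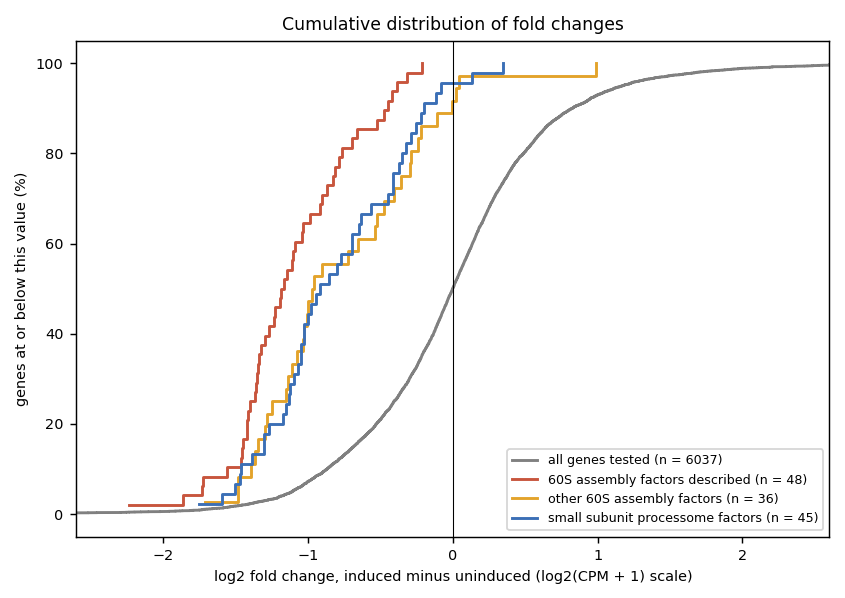
Cumulative percentage of genes at or below a given log2 fold change (induced minus uninduced) for all 6037 genes tested, the 48 assembly factors described, 36 other 60S factors and 45 small subunit processome factors. The curve of the 48 genes reaches 100% at -0.21, left of 0, whereas the other lists extend above 0.

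Members were scattered over the chromosomes, and none lay next to another member among the protein-coding genes. In 21 of the 48 the neighbouring protein-coding gene upstream pointed the other way, so that both genes start from a shared intergenic region. Of these 21 neighbours, 12 fell (57.1%), 3 rose and 6 were not called, with a median log2 fold change of -0.24; over all 2766 tested genes in such an arrangement, 37.2% of the neighbours fell. The following 3 were chosen after their values were seen. PAM18, which shares 453 bases with RLP24 and encodes a subunit of the mitochondrial import motor, fell with it, from 96.9 and 102 CPM to 43.7 and 44.7 CPM (-1.15 ± 0.07). SEC62, a translocon gene 314 bases from NOG1, went the other way, from 199.6 and 193.5 CPM to 443 and 419.6 CPM (1.13 ± 0.05, adjusted p = 7.85e-10). LCP5, one of the processome genes not called, shares its 301-base intergenic region with NSA2.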

How the data were processed

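The deposited table of the series was used. Per the file headers, each library column holds CPM values; this deposited signal was scaled by something other than the column total, since the columns sum to 945865 to 1041888. The submitters' processing notes list, with no role for any of them, TopHat2 (2.0.13), HTSeq, edgeR and the genome builds R64 and sacCer3. The table also gives the authors' log2 fold change and p-values, raw and FDR-adjusted, used here as a description. Library RNA was polyadenylated, from a stranded kit per the labels' protocols; the strand setting of the counting is not given in the sources used here.

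Values were whole multiples of the worth of 1 read in 100% of cases within 0.001 reads, which gave the reads for edgeR 4.0.16 and DESeq2 1.42.0. The step of uninduced library 2 (0.1002 CPM) is close to a round decimal fraction, so the evidence for whole reads is weaker there. A count of 3 reads, the floor, is 0.193 to 0.301 CPM, below every member. The main test was limma 3.58.1 (R 4.3.3) on log2(CPM + 1) with an intensity trend, two-sided. It covered genes whose mean over the 4 libraries reached 1 CPM, with Benjamini-Hochberg adjustment. Fits were also run on simulated data in which few genes changed, unlike here, so that run does not check the calls of these data. Within-pair chi-square per degree of freedom was 4.68 (uninduced) and 4.94 (induced), above sampling noise in both pairs. Annotation, coding lengths and promoter windows came from RefSeq R64. All members may be named; from each comparison list, the 3 called genes with the largest change and those not called lower. The members and lists were chosen with earlier results of these data known. Protein sequences were not used here. Alternatives were pseudocounts, filters, scalings, variance model, count tests, a 1.2-fold threshold, the replicate block and leaving out each library.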

Additional observations from a re-analysis of the deposited data

How the results depend on the processing

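Under all 17 alternatives every one of the 48 members stayed below 0 and 0 were called higher, and the count called lower ran from 45 to 48 (47 as reported). The counts for the helicases, GTPases, late factors and both comparison lists stayed within 1.5 times their reported values. With column totals as the scaling the median of the members was -1.05, a shift that follows the shift of all genes (0.12). The count at least 2-fold lower was then 26, compared with 31. Against a 1.2-fold change 2685 of all genes were called, compared with 4387. The size of the p-values depends on the intensity trend. Without it the limma adjusted p was 0.000117 for DBP2 (7.87e-10 as reported) and 5.56e-05 for NOP7 (7.27e-11 as reported). In that fit 47 members were called lower. Leaving out 1 library at a time, the members called lower ran from 47 to 48, those at least 2-fold lower from 29 to 32, and the median from -1.24 to -1.12; the arm with 1 library is then assumed to vary like the other. Single members changed their call in 3 cases: LOC1 and DBP6 against a 1.2-fold change, and DBP7 without uninduced library 1.

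The labels number the replicates but do not say whether same-numbered libraries were paired. Differences between replicates were not correlated between the groups (r = -0.01 across 5017 genes). Whether same-numbered libraries shared a day or preparation was not tested. With the replicate block 47 members were called lower and 4512 genes in all, compared with 4387 without it. DBP7 and SSF1, the lowest members by CPM, had the largest SEs (0.12 and 0.11), and the part of depth in this was not tested. Having 2 libraries per group limits every SE.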
